A study of Mus musculus with 2 samples.

Results

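The genes described here encode the machinery of oxidative phosphorylation. They comprise the nuclear genes for subunits of complexes I to V, the assembly factors of complexes I and II, and the protein-coding genes of the mitochondrial genome. Members were chosen by the start of the gene symbol (Ndufa, Ndufb, Ndufc, Ndufs, Ndufv, Sdh, Uqcr, Cox4i, Cox5, Cox6, Cox7, Cox8, Atp5, mt-Nd, mt-Co, mt-Cytb or mt-Atp) and had to reach 10 CPM (UMI counts of a gene scaled to a sum of 1000000 over all genes) in at least 1 cell class of 1 library; Cox6a2 was left out. Of the 32285 genes counted, 110 had such a symbol and 105 reached the level. These were 92 nuclear and 13 mitochondrial genes. By complex, 44 members belonged to complex I, 4 to complex II, 9 to complex III, 17 to complex IV and 19 to complex V, and 12 were assembly factors. Ndufa4, named after complex I, was placed with complex IV, where its protein resides. The 5 genes under the level were Cox7a1, whose highest value was 9.0 CPM, Ndufa4l2 at 0.974 CPM, and Cox7b2, Cox8b and Cox8c, which had no counts.

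The cells came from subcutaneous tumours of CT26, a mouse colorectal carcinoma line, grown in BALB/c mice that were 5 weeks old at allocation. The Control library came from mice on a normal diet. For the Arg library the labels name no diet, and it was assigned to the arginine-deficient diet by the series design; that diet lacked arginine at equal total calories. In both arms the diets began 1 week before the tumour cells were injected, tumours were taken on day 20, and CD45+ cells were selected on magnetic beads before capture on the 10x 3′ v3 platform. There was 1 library per diet, and how many mice contributed to each is not given. Differences between Arg and Control therefore compare these libraries and have no replicate check: no test is possible, and every interval below is a 95% interval that covers counting error only.

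Oxidative phosphorylation passes electrons from NADH, through complex I, and from succinate, through complex II, to complex III, cytochrome c, complex IV and finally oxygen, and complex V uses the resulting proton gradient to make ATP. Complexes I, III, IV and V are mosaics of subunits from the nuclear and the mitochondrial genome, whereas complex II is wholly nuclear. Mitochondrial genes are transcribed as long polycistronic RNAs that are cut at the transfer RNAs lying between most of them, and most of the mature RNAs receive a short poly(A) tail, which is how a 3′ method captures them. Activated lymphocytes and macrophages are known to adjust this machinery with their state, and mature neutrophils are known for few mitochondria and a reliance on glycolysis.

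To show what the members share beyond their names, 3 short motifs known from genes of the respiratory chain were counted in the 300 bases around each start (250 before to 50 after), on both strands, in the promoters that RefSeq gives for GRCm38.p6. A promoter was found for 78 of the 92 nuclear members. The letters GCGCATGC, a core of the site named for NRF1, occurred in 12 of the 78 members (15.4%), against 3.05% of all 27025 genes with a promoter and 5.53% of the other 2638 genes at 50 CPM or more over all cells. AAGATGGC, named for YY1, occurred in 11 members (14.1%), against 3.19% and 5.38%. CCGGAAG, a core of ETS factor sites, occurred in 22 members (28.2%), against 9.93% and 20.9%. A match to GCGCATGC on a strand can overlap a match on the opposite strand, and such pairs counted once per gene. Members had 1.06 promoters each and the other genes 1.29. A match describes the letters and is not a bound site.

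The windows below show the motif, in capitals, in 7 members whose levels differed most between cell classes or that recur in the comparison of the libraries. Each is read 5′ to 3′ on the gene's own strand, where the reverse complement of a motif appears if the match lay on the opposite strand.
Atp5g2, NRF1-type (chr15:102671071-102671100, minus strand): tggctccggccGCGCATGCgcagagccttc
Ndufa11, NRF1-type (chr17:56717691-56717720, plus strand): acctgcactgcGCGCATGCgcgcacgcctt
Ndufaf4, NRF1-type (chr4:24897959-24897988, plus strand): cccagatgtctGCGCATGCgcctgtgcgga
Uqcr11, NRF1-type, reverse (chr10:80406807-80406836, minus strand): atcgccttcacGCATGCGCtatacgtctgc
Ndufa9, YY1-type (chr6:126849097-126849126, minus strand): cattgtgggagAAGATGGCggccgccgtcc
Sdhd, ETS-type, reverse (chr9:50603878-50603906, minus strand): ccgtctcctgcCTTCCGGttcacgcttca
Sdhaf1, ETS-type, reverse (chr7:30322351-30322379, minus strand): tcggggcggtcCTTCCGGccagtgtgggg
The YY1-type letters sat on the gene's strand in 10 of 11 members, and in 9 of the 11 they lay after the start of transcription; the median offset over all 11 was 23 bases after it. Of the ETS-type matches 9 of 26 lay after the start, and of the NRF1-type matches 5 of 20. Here overlapping NRF1-type matches on opposite strands were counted separately, so these 20 are not all distinct sites. Members with and without a motif spanned similar ranges of level between cell classes: the median ratio of the highest to the lowest class was 4.74 with the NRF1-type letters (n = 11) and 4.32 without (n = 59), 4.40 with the YY1-type letters (n = 11) and 4.32 without (n = 59), and 3.58 with the ETS-type letters (n = 20) and 4.54 without (n = 50).

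On the mitochondrial genome the members lie in a row, and some overlap, which bears on how reads can be assigned. In the GENCODE M21 annotation of GRCm38, the end of mt-Atp8 and the start of mt-Atp6, subunits of complex V made from a shared messenger RNA, overlap by 43 bases at chrM:7927-7969 on the plus strand. The overlap is shown with the start codon of mt-Atp6 in capitals.
mt-Atp8 and mt-Atp6: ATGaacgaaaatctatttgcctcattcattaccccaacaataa
The genes mt-Nd4l and mt-Nd4 likewise overlap by 7 bases, mt-Atp6 and mt-Co3 by 1 base, and mt-Nd5 and mt-Nd6, on opposite strands, by 14 bases. mt-Nd6 is the only member on the minus strand. Because mt-Atp8 and mt-Atp6, and mt-Nd4l and mt-Nd4, sit on shared messenger RNAs, a read near their junction may be assigned to either, so the values of mt-Atp8 (204 bases long) and mt-Nd4l (297 bases) are uncertain in this respect. Nuclear members with processed pseudogenes and mitochondrial members with nuclear copies carry the same kind of uncertainty.

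The Arg library held 14540 cell barcodes and 155927693 UMIs, and the Control library 14343 barcodes and 191505551 UMIs; 44 barcode sequences occurred in both. After filters, 12991 Arg cells with a median of 8294 UMIs and 12800 Control cells with a median of 10021 UMIs remained. Cells with more than 10% mitochondrial UMIs, 4.57% of Arg and 5.97% of Control barcodes, were removed; the 13 mitochondrial members are the only mitochondrial genes counted, so this limit acts on exactly these members. Clusters were named from marker genes, and 10 named classes had at least 100 cells in both libraries. These were CD8 T cells (1106 Arg and 1670 Control cells), NK cells (1481 and 777), CD4 T cells (273 and 174), regulatory T cells (Treg; 285 and 151), type 1 and type 2 conventional dendritic cells (cDC1; 196 and 192, and cDC2; 285 and 138), plasmacytoid dendritic cells (pDC; 184 and 159), monocytes (1354 and 945), macrophages (2098 and 4346) and neutrophils (226 and 434). Mast cells (165 and 51) and mature dendritic cells (81 and 74) were too few in a library for that comparison; for them the levels and the makeup of the mitochondrial pool are given. Each of these 12 classes detected all of its own markers in both libraries except mast cells, which had 1 of 13 at 0 in each. Ptprc, which encodes CD45, ranged from 186 CPM in Control mast cells to 2136 CPM in Control pDCs. Clusters called C0 (led by Pf4, Arg1 and Mmp13, 2000 and 828 cells), C1 (led by Ly6i and Slc4a11, 2014 and 495) and C5 (led by Tm4sf1, Zfpm2 and Rhox5, 541 and 1480) did not meet the naming rule and were compared by number. The unnamed clusters C12 (341 and 536 cells, median 879 UMIs) and L9 (166 and 157) also had at least 100 cells in both libraries but were not compared. Log2 of Arg over Control for their summed mitochondrial members was 0.496 in C12 and -0.225 in L9. The medians over their nuclear members were -0.29 and 0.03. Ptprc was at 39.9 CPM in the Arg and 19.2 CPM in the Control cells of C5, below every named class, so this cluster goes against the CD45+ label.

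Macrophages and mast cells devoted the most of their RNA to the nuclear members, and neutrophils the least. Summed over the 92 nuclear members, mast cells reached 21471 CPM in the Arg and 23549 CPM in the Control library, and macrophages 20346 and 20480 CPM. Neutrophils, at 5734 and 6533 CPM, were the lowest class in both libraries. The other classes lay between 12123 CPM, in Control CD4 T cells, and 19581 CPM, in Arg cDC2s. Within this middle band CD8 T cells were at 16047 and 16186 CPM, NK cells at 15444 and 15335 CPM, and Tregs at 16512 and 15653 CPM. CD8 T cells were above NK cells in both libraries, whereas Tregs were above CD8 T cells in the Arg library and below them in the Control library.

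The mitochondrial members followed a partly different order. Mast cells were again highest, at 39343 CPM in the Arg and 28776 CPM in the Control library, and neutrophils lowest, at 3918 and 5604 CPM. pDCs, with 20902 and 20014 CPM, came next among the named classes, above macrophages with 19418 and 18586 CPM. CD4 T cells, low in nuclear members, were high in mitochondrial ones, at 17214 and 16439 CPM. The number of mitochondrial UMIs per nuclear-member UMI thus separated the classes: it was 1.33 in Arg and 1.36 in Control CD4 T cells and 1.252 and 1.40 in pDCs, but 0.811 and 0.830 in cDC1s and 0.702 and 0.821 in cDC2s. Among the 10 classes compared, the highest mean, in CD4 T cells, was 1.76 times the lowest, in cDC2s; without a limit on the mitochondrial share of a cell, neutrophils became the highest and the ratio was 2.71. CD8 T cells (1.03 and 0.885), NK cells (1.02 and 0.905), monocytes (1.03 and 0.873), Tregs (0.958 and 0.827) and macrophages (0.954 and 0.908) were close together: CD8 T cells were highest of these in the Arg library and macrophages in the Control library. The classes also differed in depth. Neutrophils, with the lowest median (2202 Arg and 2150.5 Control UMIs), had 0.683 and 0.858. CD4 T cells, with 4554 and 4244 UMIs, had the highest mean ratio of the 10 classes, although pDCs were above them in Control. Mast cells, with 2844 and 2757 UMIs, had 1.83 and 1.22. The cDC1s had a median of 17477 and 18850.5 UMIs beside their 0.811 and 0.830. The part of depth in these ratios was not tested.

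**Figure D1:**
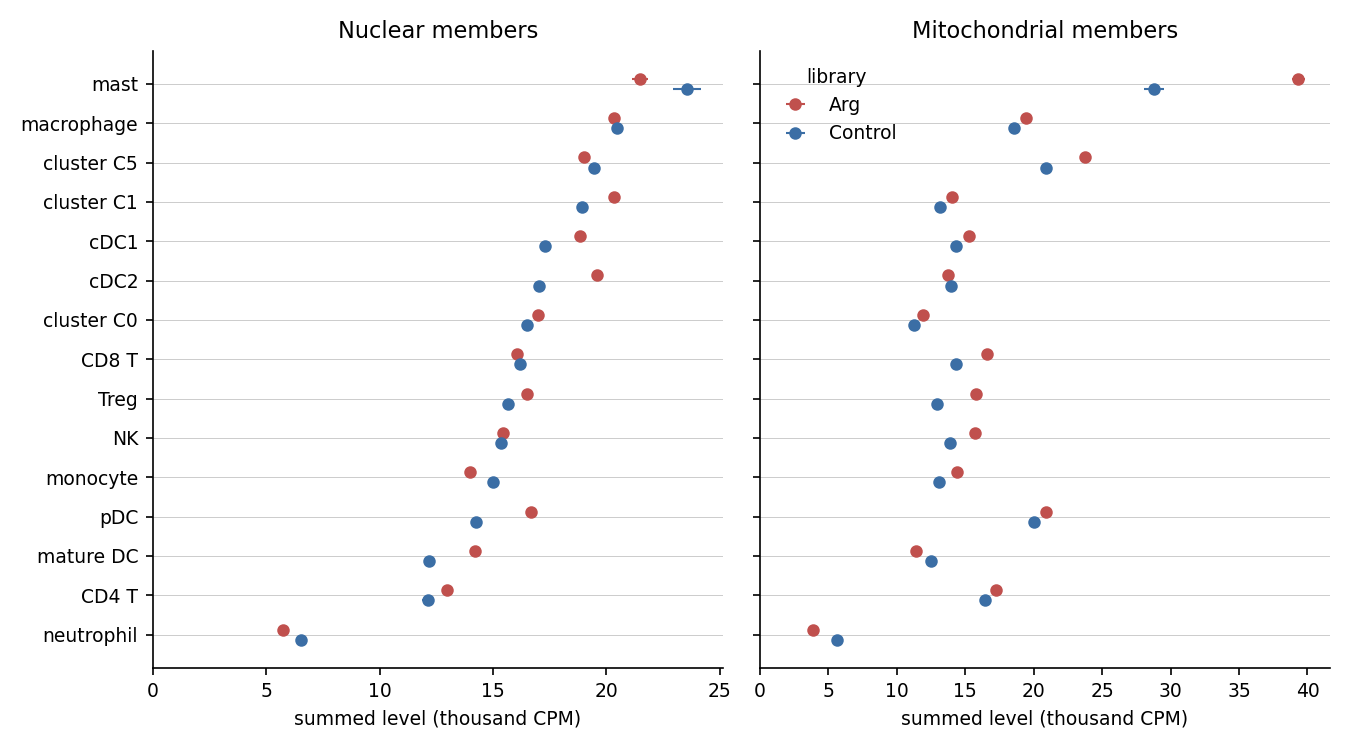
Summed level of the nuclear and of the mitochondrial members, in CPM, in units of 1000, in each cell class or numbered cluster of the Arg (red) and the Control (blue) library; bars are exact Poisson 95% intervals of the sum, mostly hidden by the points. Mast cells and macrophages are highest and neutrophils lowest in nuclear members (5734 CPM Arg and 6533 CPM Control), whereas pDCs stand above macrophages in mitochondrial members (20902 against 19418 CPM in Arg).

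Single nuclear members varied less between classes than genes at large, and mitochondrial members about as much. With 5 CPM added to both, the median ratio of the highest to the lowest class was 4.03 for the 81 nuclear members at 50 CPM or more in their highest class and 6.22 for 12 such mitochondrial members, beside 5.95 over all 6062 such genes. Ratios of single members given next are without that addition. Classes were ranked by the mean of both libraries, and the highest class could differ between the libraries. Mast cells were the highest class for 37 of the 92 nuclear members and macrophages for 29, and neutrophils the lowest for 85 of 92. The comparisons that follow are of the same gene between classes, since UMI counts from the 3′ end do not rank genes against each other.

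In complex I, which oxidises NADH, the widest ranges were those of Ndufa9, Ndufa11 and Ndufc2, all accessory subunits. Ndufa9 was at 47.9 CPM in Arg and 55.0 CPM in Control macrophages, and in neutrophils it had 0 UMIs in the Arg library, which allows up to 6.83 CPM, and 10.1 CPM in the Control library. Ndufc2 was at 257.2 and 277.2 CPM in macrophages and at 18.5 and 42.9 CPM in neutrophils, an 8.70-fold range between the class means. Ndufa11 spanned 8.83-fold, from 146 and 235 CPM in mast cells to 20.4 and 22.7 CPM in neutrophils. Neutrophil values were low in both libraries for each of these subunits. A few complex I members peaked in lymphoid or plasmacytoid cells instead. Ndufa13 was highest in CD8 T cells (218 CPM Arg and 225 CPM Control) and Ndufs4 in NK cells (171 and 172 CPM). Ndufs3, Ndufs8 and Ndufv2, core subunits, were highest in pDCs by the mean and in Arg. In Control, Ndufs3 and Ndufs8 were highest in macrophages and Ndufv2 in mast cells.

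Complex II links the citric acid cycle to the respiratory chain. Sdhc, a membrane anchor subunit, was at 93.4 CPM in Arg and 92.2 CPM in Control macrophages and at 16.7 and 21.9 CPM in neutrophils, a 4.82-fold range. Sdhb, the iron-sulfur subunit, had the same extremes, at 125 and 139 CPM in macrophages and 35.2 and 40.4 CPM in neutrophils, a 3.49-fold range. Sdhd, the other anchor, was highest in macrophages as well, at 133 and 112 CPM, but lowest in CD4 T cells, at 42.8 and 45.0 CPM. Sdha, the catalytic subunit, was highest in pDCs by the mean and in Control, but in macrophages in Arg.

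In complex III, which passes electrons from ubiquinol to cytochrome c, the small subunits Uqcr11, Uqcrb and Uqcr10 had the widest ranges. Uqcr11 was at 279 CPM in Arg and 252 CPM in Control mast cells and at 48.1 and 46.2 CPM in neutrophils, a 5.63-fold range. Uqcrb, at 354 and 460 CPM in mast cells and 70.4 and 81.6 CPM in neutrophils, spanned 5.36-fold. Uqcr10 spanned 5.05-fold. Uqcrc2, a core subunit, was highest in Tregs by the mean and in Control, but in cDC1s in Arg. Uqcrfs1, the Rieske iron-sulfur protein, was highest in cDC1s.

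Complex IV, cytochrome c oxidase, has subunits with tissue-specific isoforms, some of which were found in few classes. Ndufa4 was at 944 CPM in Arg and 1168 CPM in Control mast cells and at 124 and 157 CPM in neutrophils, a 7.51-fold range, and Cox7c and Cox6c spanned 4.57-fold and 4.50-fold between the same classes. Cox4i1, the widely expressed isoform of subunit 4, was found in every class, from 769 and 765 CPM in macrophages to 226 and 251 CPM in neutrophils. Its partner Cox4i2, known as the isoform induced by low oxygen, was at 17.0 CPM in Arg and 14.5 CPM in Control macrophages, at 5.82 and 3.69 CPM in monocytes, and at 2.52 CPM or less in every other named class; cluster C0 had 20.3 and 16.2 CPM. Cox6b2, known best from testis, was at 33.0 and 31.0 CPM in mast cells and 7.68 and 6.80 CPM in cDC2s, whereas Cox6b1 was present throughout. By the mean Cox6b1 was highest in macrophages, at 472 and 438 CPM, but in Control it was highest in mast cells. Cox7a1 and Cox8b, the isoforms of heart and skeletal muscle, did not reach 10 CPM, while their widespread counterparts Cox7a2 and Cox8a reached 593 and 531 CPM and 1282 and 1226 CPM in mast cells. Cox7a2l, which has a role in joining complexes III and IV, was highest in mature dendritic cells at 334 and 347 CPM and next in CD4 T cells at 278 and 278 CPM. Cox6a1, at 189 and 270 CPM in mast cells, was highest there by the mean and in Control, but in cDC2s in Arg.

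In complex V, the ATP synthase, the largest ranges belonged to Atp5g1 and Atp5g2, which encode identical mature copies of the rotating c subunit, and to Atp5f1, of the peripheral stalk. Atp5g1 was at 375 CPM in Arg and 469 CPM in Control mast cells and 33.3 and 42.0 CPM in neutrophils, an 11.2-fold range. Atp5g2 spanned 8.45-fold, from 773 and 770 CPM to 74.1 and 108 CPM, and Atp5f1 8.19-fold, from 851 and 1040 CPM to 106 and 125 CPM. The third gene for the c subunit, Atp5g3, was less uneven, with a 5.64-fold range. Among assembly factors, Ndufaf4 was at 61.5 and 53.1 CPM in mast cells but had only 3 and 5 UMIs in neutrophils, so its range is poorly fixed. Sdhaf1, which helps insert the iron-sulfur clusters of complex II, was highest in mature dendritic cells (72.5 and 67.2 CPM) and next in Tregs (55.0 and 63.7 CPM), and Sdhaf4 in mast cells (79.5 and 111 CPM).

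**Figure D2:**
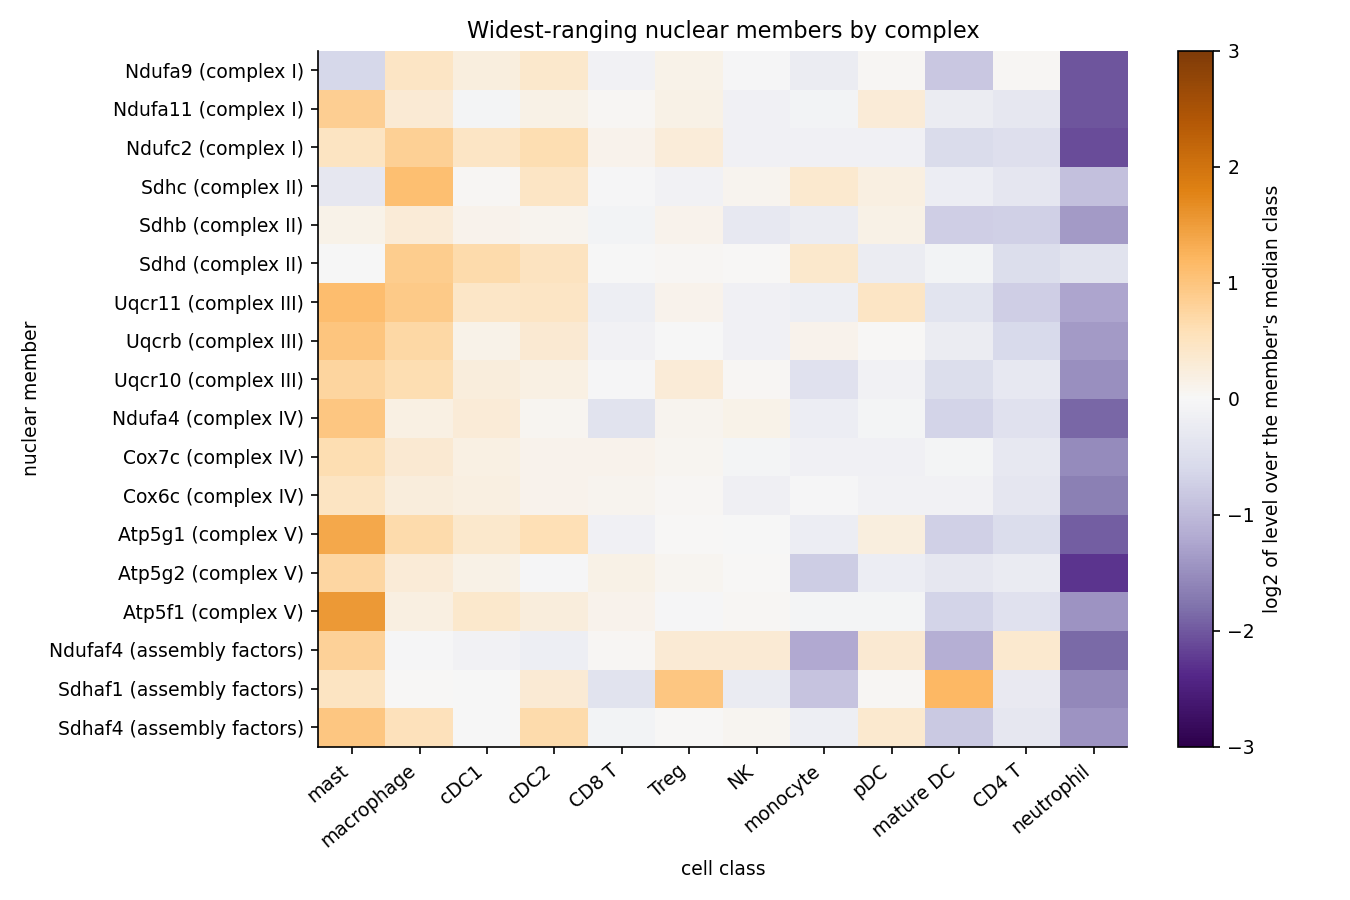
Level of the 3 nuclear members per complex with the widest range (vertical axis) in each cell class (horizontal axis), coloured by log2 of the class mean over the member's median class. The neutrophil column is low for nearly all of them, as for Atp5g1 with its 11.2-fold range, while Sdhaf1 is high in mature dendritic cells and Tregs.

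Mitochondrial members varied together between classes. Mast cells were the highest class for 11 of the 13 and neutrophils the lowest for all 13. mt-Nd1, a complex I core subunit, was at 2631 CPM in Arg and 2124 CPM in Control mast cells and at 167 and 220 CPM in neutrophils, a 12.3-fold range. mt-Cytb, the cytochrome b of complex III, spanned 10.9-fold, and mt-Co2, a copper-bearing subunit of complex IV, 8.12-fold, with 8953 and 6333 CPM in mast cells. The exceptions were mt-Nd6, highest in CD4 T cells (39.4 and 46.1 CPM), and mt-Atp8, highest in pDCs (64.1 and 44.8 CPM). By the mean mt-Nd3 and mt-Nd5 were highest in mast cells, but in Control they were highest in pDCs.

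In the comparison of the libraries, the nuclear members of dendritic cells were higher in the Arg library, and those of monocytes and neutrophils lower, while those of CD8 T cells, NK cells and macrophages had medians within 0.02 of 0. Other settings moved some of these: the monocyte median turned to 0.04 at cluster resolution 2, the macrophage median ranged down to -0.14, the CD8 T median lay between -0.06 and 0.03, and with doublets kept the CD4 T and Treg medians turned to -0.03 and -0.02. Values are medians over members of log2 of the Arg over the Control level, with 5 CPM added to both, for members at 10 CPM or more in the class. They were 0.21 in pDCs (77 of 87 members higher in Arg), 0.18 in cDC2s (75 of 85) and 0.13 in cDC1s (66 of 87). The medians of all genes at that level were 0.06, 0.01 and -0.01 in the same classes. For monocytes the nuclear members gave -0.13 (20 of 86 higher), beside 0.01 for all genes, and for neutrophils -0.20 (21 of 80 higher), beside -0.11. The remaining named classes gave -0.01 in CD8 T cells (41 of 89), 0.01 in NK cells (47 of 87), -0.02 in macrophages (37 of 88), 0.07 in CD4 T cells (56 of 88) and 0.06 in Tregs (54 of 88). Within CD8 T cells the cluster medians ran from -0.17 to 0.16, and within macrophages from -0.20 to 0.02. Scaling by trimmed means (TMM) in place of library totals shifted all genes by -0.12 in macrophages, -0.17 in neutrophils and -0.11 in pDCs. Members in 1 class come from the same cells, and classes come from the same libraries, so neither are replicates.

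The size of these differences was modest and is best read against all genes. A difference was counted where the levels, with 5 CPM added to both, stood at a ratio of 5 to 4 or more in either direction. In pDCs 26 of 87 nuclear members were higher in Arg by that much (29.9%), beside 17.6% of all 7956 genes at that level, and 0 were lower, beside 10.3%. The pDC class was unevenly filled: its cluster D0 held 77.7% of the Arg and 53.5% of the Control pDCs. Within D0 the nuclear median was 0.19. There 16 of 88 members were higher, a share near that of all genes (1312 of 7904), and 3 were lower, beside 1410 genes. In cDC2s 18 of 85 were higher (21.2%), beside 13.1% of all genes, and 1 was lower (1.18%), beside 14.3%. In cDC1s 8 of 87 were higher (9.20%), near the 10.9% of all genes, and 1 was lower (1.15%), beside 12.5%. Neutrophils had 33 of 80 lower (41.3%), beside 32.9% of all genes, and 5 higher (6.25%), beside 20.3%. Few neutrophil UMIs stood behind these counts (3097 Arg and 7770 Control UMIs over all nuclear members). In monocytes 6 of 86 were lower (6.98%), beside 8.45%, and 0 were higher, beside 10.2%.

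The other classes had few nuclear members past the fold, fewer than genes at large. CD8 T cells had 0 of 89 higher (7.78% of all genes) and 1 lower (9.56%), and NK cells had 0 of 87 higher (4.36%) and 1 lower (3.97%). Macrophages had 1 of 88 higher (11.9%) and 1 lower (8.94%). Tregs had 3 of 88 higher (10.3%) and 3 lower (15.4%), and CD4 T cells 9 of 88 higher (16.4%) and 2 lower (19.9%). In the unnamed clusters, C0 had 0 of 87 higher (13%) and 2 lower (5.82%), C1 had 3 of 86 higher (9.53%) and 0 lower (6.29%), and C5 had 1 of 89 higher (4.79%) and 2 lower (9.94%). The nuclear medians of these clusters were 0.04, 0.07 and -0.08. The members and all genes were not matched on level.

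**Figure D3:**
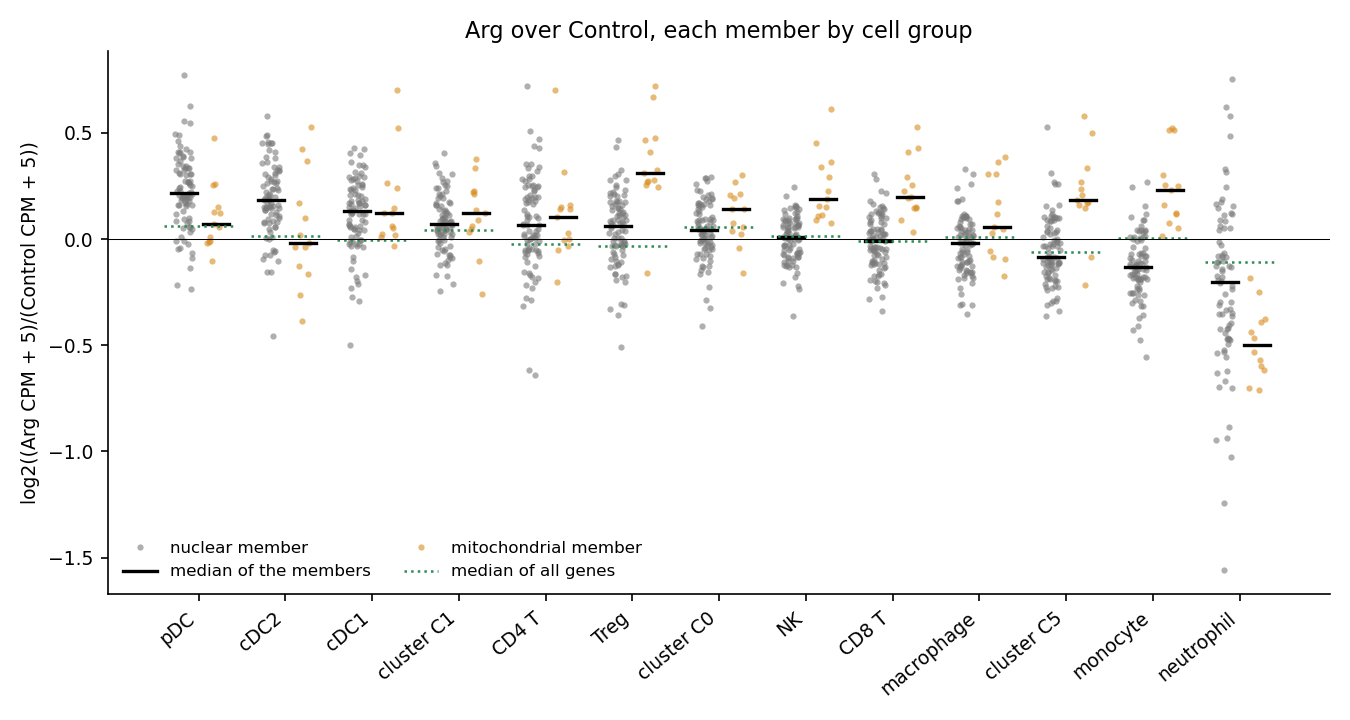
Log2 of Arg over Control, with 5 CPM added to both, for each nuclear (grey) and mitochondrial (orange) member in each group compared; black bars are medians of the members and dotted lines the median of all genes at 10 CPM or more. The nuclear medians of pDCs (0.21), cDC2s (0.18) and cDC1s (0.13) lie above 0 and those of monocytes (-0.13) and neutrophils (-0.20) below.

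In pDCs, cDC2s, cDC1s and cluster C1 the nuclear median was above 0 for every complex and for assembly factors. The cDC1 medians lay between 0.09, for complex III, and 0.18, for complex II. Those of C1 lay between 0.007 and 0.13, for the same complexes. The pDC median was 0.21 for complex I (32 members higher), 0.19 for complex II, 0.24 for complex III, 0.21 for complex IV, 0.19 for complex V and 0.27 for assembly factors, and the cDC2 medians lay between 0.08, for assembly factors, and 0.23, for complex II. Among members at 50 CPM or more in either library, the floor for naming the extremes, Atp5g1 was the highest in pDCs, at 229 CPM in Arg and 147 CPM in Control, a ratio of 1.56 [1.32, 1.85]. At the other end Sdha was at 73.6 and 87.4 CPM, with an interval of the ratio that spans 1 [0.657, 1.08]. Ndufb1-ps (chr12:101968090-101977068, minus strand, GRCm38), a complex I member whose symbol carries a pseudogene suffix, was at 268 and 177 CPM in cDC2s, a ratio of 1.51 [1.32, 1.73]; it was likewise the highest member in cDC1s, at 195 and 144 CPM. Cox7a2, at 380 and 275 CPM in cDC2s, and Cox8a, at 1001 and 808 CPM, were also higher in Arg there. The lowest members were Ndufa10 in cDC2s, at 71.7 and 80.4 CPM with an interval that spans 1 [0.719, 1.11], and Ndufa12 in cDC1s, at 62.3 and 76.2 CPM. The nuclear medians stayed above 0 in each cDC1 cluster (0.15 to 0.18) and in 2 of the 3 cDC2 clusters (0.32, 0.19 and -0.05).

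Other gene groups were lower in the Arg library in dendritic cells. Genes known to respond to tissue dissociation, such as Fos, Jun and Hspa1a, were counted at a ratio of 5 to 4 or more. In Arg pDCs 17 of 19 were lower by that much (10.3% of all genes). The count was 16 of 19 in cDC2s (14.3%) and in cDC1s (12.5%). Medians were -1.22, -0.83 and -0.70. Summed, this list was at 6327 CPM in Arg and 15241 CPM in Control pDCs, 11292 and 19110 CPM in cDC2s, and 10194 and 15602 CPM in cDC1s. Jun was at 533 CPM in Arg and 2118 CPM in Control pDCs. Cell cycle genes were lower in Arg in 14 of 14 measured in cDC2s, with a median of -1.52. Markers of monocytes in the cDC2 class summed to 1734 CPM in Arg and 2911 CPM in Control, with 1 of 8 and 2 of 8 at 0. The part of these in the members' difference was not tested.

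CD8 T cells and macrophages shared 3 of their 5 highest and 3 of their 5 lowest members. In CD8 T cells the 5 highest in Arg were Ndufb1-ps (161 CPM Arg and 132 CPM Control), Ndufa1 (153 and 130 CPM), Atp5l (566 and 485 CPM), Atp5g1 (155 and 136 CPM) and Ndufb3 (139 and 123 CPM). The 5 lowest were Ndufa4 (356 and 451 CPM, a ratio of 0.789 [0.758, 0.821]), Atp5b (250.02 and 305 CPM), Ndufa12 (60.1 and 73.6 CPM), Atp5c1 (279 and 329 CPM) and Atp5g2 (476 and 555 CPM). Ndufa1 and Ndufb3 are small accessory subunits of complex I, and Atp5b and Atp5c1 encode the catalytic beta and the central gamma subunit of ATP synthase. Macrophages shared Ndufb1-ps (217 and 172 CPM), Ndufa1 (168 and 135 CPM) and Atp5l (703 and 616 CPM) at the upper end, together with Atp5k (153 and 127 CPM) and Sdhd (133 and 112 CPM). At the lower end they shared Atp5b (338 and 420 CPM, a ratio of 0.804 [0.785, 0.824]), Ndufa12 (93.7 and 117 CPM) and Ndufa4 (542 and 671 CPM), followed by Uqcrc1 (53.5 and 64.9 CPM) and Ndufs8 (70.4 and 83.6 CPM). In both classes all 10 ratios lay between 0.789 and 1.27.

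Some of these members were also outermost in the remaining classes. The lowest and the highest were Atp5b (268 CPM Arg and 316 CPM Control) and Ndufb10 (118 and 102 CPM) in NK cells, and Sdhaf2 (40.3 and 53.1 CPM, interval [0.553, 1.05]) and Ndufb1-ps (232 and 167 CPM) in Tregs. In CD4 T cells they were Atp5o (105 and 131 CPM, interval [0.620, 1.03]) and Atp5g1 (138 and 81.6 CPM, a ratio of 1.69 [1.28, 2.25]). The Arg cells of that class also carried plasma cell markers at 2202 CPM, beside 23.7 CPM in Control, and their part was not tested. Monocytes had Uqcrc2 (56.4 and 77.6 CPM) and Sdhd (93.3 and 76.5 CPM) at the ends, and neutrophils Cox6a1 (35.2 and 89.97 CPM, a ratio of 0.391 [0.227, 0.641]) and Atp5k (63.0 and 35.3 CPM, a ratio of 1.78, interval from just under 1.1 to 2.87). In the clusters known by number the ends were Ndufa4 (404 and 508 CPM) and Atp5k (130 and 105 CPM) in C0, Cox7a2l (184 and 214 CPM) and Ndufb1-ps (255 and 192 CPM) in C1, and Uqcrh (334 and 423 CPM) and Uqcrq (376 and 260 CPM) in C5.

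A few nuclear members differed the same way in nearly every group. Over the 12 groups compared other than neutrophils, 5 of 85 nuclear members (5.88%) were higher in Arg in every group, beside 2.38% of all 5200 genes measured in each, and 0 were lower in every group, beside 2.02%. The 5 were Atp5g3, Atp5l, Ndufa11, Ndufb1-ps and Uqcrb. Ndufb1-ps had a median log2 of 0.31 over these groups, from 0.10 in NK cells to 0.58 in cDC2s, and Atp5l, of the membrane part of ATP synthase, 0.20, from 0.10 in C5 to 0.43 in CD4 T cells. With TMM scaling Ndufb1-ps and Atp5l were still higher in 12 of 12, but Atp5g3 and Uqcrb in 11 and Ndufa11 in 10. Ndufa12 was lower in 11 of the 12, with a median of -0.19. Because every group comes from the same pair of libraries, a difference between libraries in preparation would appear in all groups alike and cannot be told apart from diet.

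The mitochondrial members as a sum were higher in the Arg library in CD8 T cells, NK cells, Tregs and monocytes, and likewise in cluster C5. The sum was 16597 CPM in Arg and 14325 CPM in Control CD8 T cells, a log2 ratio of 0.21 [0.20, 0.22], with 13 of 13 members higher. In NK cells it was 0.18 [0.17, 0.19] with 13 of 13 higher, in Tregs 0.29 [0.26, 0.32] with 12 of 13, and in monocytes 0.14 [0.13, 0.15] with 13 of 13. The nuclear medians of these 4 named classes were -0.01, 0.01, 0.06 and -0.13, so the mitochondrial UMIs per nuclear-member UMI were higher in Arg in each. The log2 ratio of the mitochondrial sum was smaller in cDC1s (0.09), CD4 T cells (0.07), pDCs (0.06) and macrophages (0.06), and -0.02 in cDC2s. In the numbered clusters it was 0.184 [0.178, 0.189] in C5, 0.09 in C1 and 0.08 in C0, each with 11 of 13 members higher. The macrophage sign was not stable: with doublets kept, other clustering settings, TMM scaling or cluster C0 included it lay between -0.15 and -0.056. TMM scaling turned the pDC value to -0.052. Neutrophils were at -0.52 [-0.59, -0.45], with 0 of 12 higher, but a 20% limit, which adds 2 Arg and 3 Control cells, turned this to 0.12 and no limit to 0.43. By sums on both sides, the log2 ratio was 0.23 for nuclear and 0.06 for mitochondrial members in pDCs and 0.20 and -0.02 in cDC2s, but 0.12 and 0.09 in cDC1s. It was -0.01 and 0.21 in CD8 T cells, 0.01 and 0.18 in NK cells and 0.08 and 0.29 in Tregs. The cDC1 and cDC2 values join clusters of opposite sign in the mitochondrial sum. Its log2 ratio was 0.05, -0.23 and 0.26 in cDC1 clusters D2, D5 and D6. In cDC2 clusters D1, D4 and D8 it was -0.05, -0.12 and 0.24. D2 held 33.7% of the Arg and 58.3% of the Control cDC1s, and D8 had only 49 Arg and 34 Control cells. No test of these contrasts between nuclear and mitochondrial members is possible with 1 library per diet.

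Past the ratio of 5 to 4, 6 of 13 mitochondrial members were higher in Tregs (10.3% of all genes) and 4 in NK cells (4.36%). CD8 T cells had 3 higher (7.78%), monocytes 3 (10.2%) and cluster C5 3 (4.79%). All of these had 0 lower, beside 3.97% to 15.4% of all genes. In cDC2s 3 were higher (13.1%) and 1 lower (14.3%). Macrophages had 2 higher (11.9% of all genes), as did cDC1s (10.9%) and C1 (9.53%). CD4 T cells had 1 higher (16.4%), pDCs 1 (17.6%) and C0 0 (13%). In each of these groups 0 were lower, beside 5.82% to 19.9% of all genes. Neutrophils had 10 of 12 lower (32.9%) and 0 higher (20.3%) at the 10% limit. In CD8 T cells those past the line were mt-Co1, mt-Atp8 and mt-Nd4l. mt-Co1, the catalytic core of cytochrome c oxidase, was at 2788 CPM in Arg and 2067 CPM in Control, a ratio of 1.35 [1.33, 1.37]. mt-Atp8 was at 50.8 and 33.7 CPM, a ratio of 1.51 [1.33, 1.70], and mt-Nd4l at 98.4 and 72.8 CPM. The other complex I genes of the mitochondrial genome were closer to equality in that class: mt-Nd1 was at 770.2 and 670.9 CPM, mt-Nd2 at 459.5 and 449.2 CPM, mt-Nd3 at 116 and 94.0 CPM, mt-Nd4 at 957 and 866 CPM and mt-Nd5 at 230 and 196 CPM. mt-Nd6, the only member on the minus strand, was at 31.1 and 28.9 CPM, a ratio of 1.07 [0.928, 1.24]. mt-Cytb was at 1163 and 975 CPM, mt-Co2 at 3077 and 2694 CPM, mt-Co3 at 2444 and 2206 CPM, and mt-Atp6 at 4411 and 3972 CPM, a ratio of 1.11 [1.097, 1.124].

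Macrophages showed the same members apart from the rest, around a sum near equality. mt-Co1 was at 3350 CPM in Arg and 2605 CPM in Control, a ratio of 1.29 [1.28, 1.30], and mt-Nd4l at 119 and 90.2 CPM. By contrast mt-Atp6 was at 4428 and 4691 CPM, mt-Nd2 at 455 and 515 CPM and mt-Cytb at 1349 and 1404 CPM, all lower in Arg. Tregs had mt-Co1 at 2493 and 1988 CPM, mt-Nd1 at 851 and 639 CPM, and mt-Atp8 at 49.0 and 27.8 CPM, a ratio of 1.76 [1.202, 2.66]. In neutrophils mt-Atp6 was at 933 and 1521 CPM, a ratio of 0.613 [0.555, 0.678], whereas mt-Co1, at 770 and 876 CPM, was nearer to equality.

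In the makeup of the mitochondrial pool, mt-Co1, mt-Nd4l and mt-Atp6 differed between the libraries in the same direction in every group. The other members did not. Shares of a pool add to a whole, so they are not independent of each other. The share of mt-Co1 in all mitochondrial UMIs was higher in Arg in 15 of 15 groups (the 12 named classes with levels and the 3 numbered clusters), by 0.388 to 4.03 percentage points. In CD8 T cells it was 16.8% [16.6, 17.0] in Arg and 14.4% [14.3, 14.6] in Control (exact Clopper-Pearson intervals). The share of mt-Atp6 was higher in 0 of 15 groups, with differences from -3.32 to -0.248 points, and was 26.6% and 27.7% in CD8 T cells. mt-Nd4l had the higher share in Arg in 15 groups, by 0.00213 to 0.231 points, so the smallest difference was close to equality. mt-Atp8 had the higher share in 14 and mt-Nd3 in 13, and mt-Nd2 in 1 and mt-Nd6 in 2. The rest were mixed: mt-Nd5 in 12, mt-Nd1 in 11, mt-Cytb in 8, mt-Co2 in 4, and mt-Co3 and mt-Nd4 in 3 each. These shares do not depend on scaling to the library total. A direction that is alike in all groups, neutrophils included, is shared by the libraries as a whole, and diet and library preparation cannot be told apart here.

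**Figure D4:**
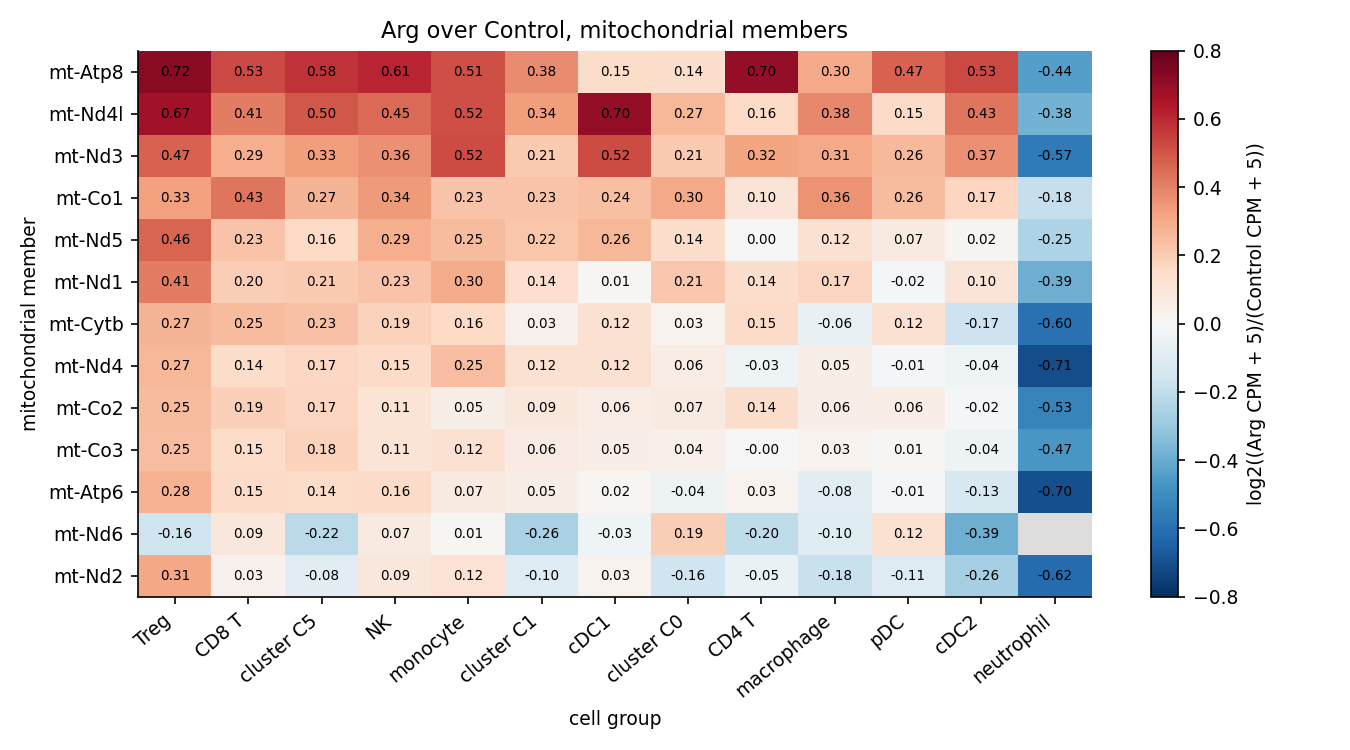
Log2 of Arg over Control, with 5 CPM added to both, for each of the 13 mitochondrial members (vertical axis) in each group compared (horizontal axis), as colour and number; the grey cell is a member under 10 CPM. mt-Atp8, mt-Nd4l, mt-Nd3, mt-Co1 and mt-Nd5 are higher in Arg in all 12 groups other than neutrophils (with TMM scaling mt-Nd5 in 11), whereas mt-Nd2 and mt-Nd6 are higher in 5.

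Member by member over the 12 groups other than neutrophils, mt-Atp8 (median log2 of 0.52), mt-Nd4l (0.42), mt-Nd3 (0.32), mt-Co1 (0.26) and mt-Nd5 (0.19) were higher in Arg in all 12, so 5 of 13 (38.5%), beside 2.38% of all genes. The lowest log2 of mt-Nd5, in CD4 T cells, was only 0.00056. With TMM scaling mt-Nd5 was higher in 11, the others in 12. mt-Nd1 and mt-Co2 were higher in 11 groups, mt-Cytb and mt-Co3 in 10, mt-Nd4 in 9 and mt-Atp6 in 8; mt-Nd2 and mt-Nd6 were higher in 5. The shortest members, mt-Atp8 and mt-Nd4l, are also those whose messenger RNA is shared with a longer gene, and mt-Nd3 (348 bases) is short as well, while mt-Co1 (1545 bases) is not. A part of length or of read assignment was not tested.

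Within CD8 T cells the clusters were unevenly filled, which matters for the class value. Cluster L1 held 63 Arg and 906 Control cells, L3 440 and 101, L4 334 and 151, L6 108 and 330, and L10 145 and 154. The log2 ratio of the mitochondrial sum was 0.20, 0.35, -0.05, 0.19 and 0.25 in these clusters, so it was above 0 in 4 of 5. Cell cycle genes were lower in Arg in 20 of 20 measured in CD8 T cells, with a median of -0.56 and sums of 1799 and 2593 CPM, and their part was not tested. In NK cells the ratio was above 0 in all 4 clusters, from 0.04 to 0.26. In macrophages it was above 0 in 2 of 4, at 0.22 and 0.03 beside -0.16 and -0.07, so the macrophage value near 0 joins clusters of opposite sign.

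The limit on mitochondrial UMIs per cell decided the sign in neutrophils. With limits of 5%, 10%, 20% and none, the log2 ratio of their mitochondrial sum was -0.69, -0.52, 0.12 and 0.43. Without a limit, 7 further Arg cells held 75.8% of the mitochondrial UMIs of the class, and 8 further Control cells 52.0%. The direction of the neutrophil difference therefore changes with the limit, and its turn above 0 came with a handful of added cells. At the 10% limit the median mitochondrial share of a neutrophil was 0.185% in Arg and 0.217% in Control. CD8 T cells kept 0.24, 0.21, 0.22 and 0.21 under the same limits, Tregs 0.31, 0.29, 0.32 and 0.39, monocytes 0.14, 0.14, 0.12 and 0.17, and macrophages ranged from 0.01 to 0.19. The limit also moved cDC2s, from -0.02 at 10% to -0.23 at 20% and with none, and CD4 T cells, which had 0.15, 0.07, 0.17 and 0.03. In mast cells the limit removed many cells: 106 Arg and 40 Control cells remained at 5%, and the Arg level was 30845 CPM at 5%, 39343 CPM at 10% and 41436 CPM with none.

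**Figure D5:**
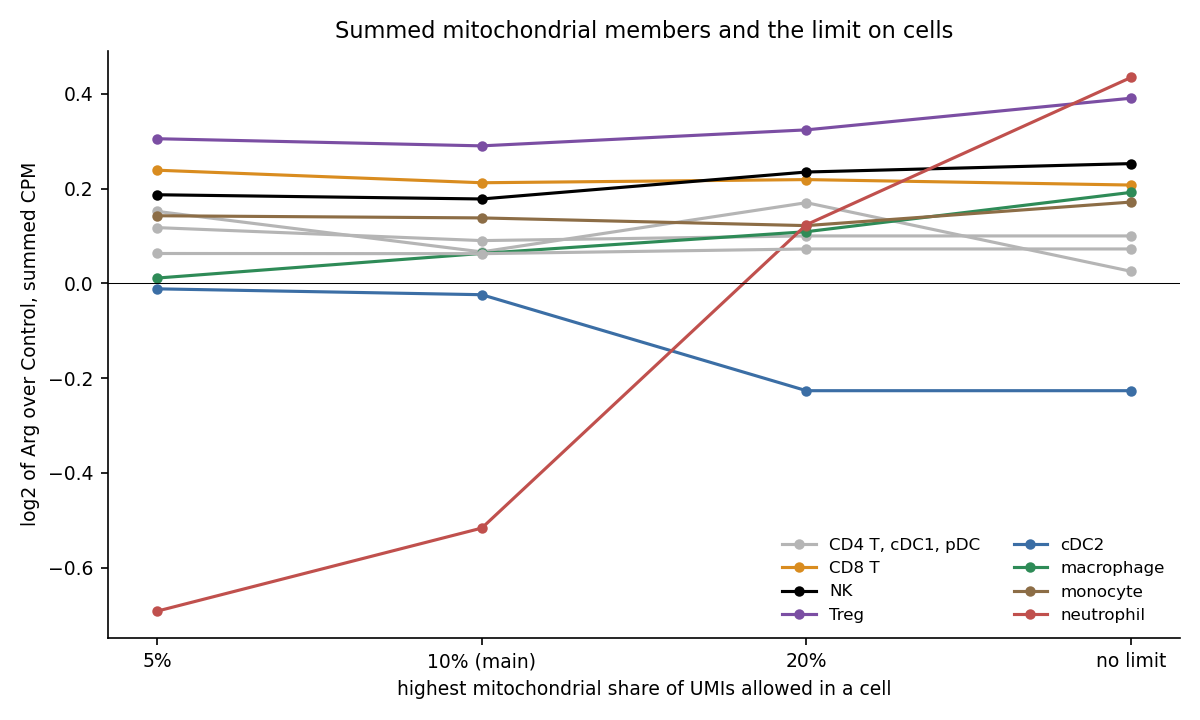
Log2 of Arg over Control for the summed mitochondrial members in each of the 10 classes (lines) at limits of 5%, 10%, 20% and no limit on the mitochondrial share of a cell. The neutrophil line crosses 0, from -0.69 to 0.43, and the cDC2 line drops from -0.02 to -0.23, while the CD8 T line stays between 0.21 and 0.24.

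Genes of linked mitochondrial functions, from lists that share no member with the set, shifted in some classes and little in others. In pDCs 16 of 22 measured genes of the citric acid cycle and pyruvate entry were higher in Arg, with a median of 0.16. Past the ratio of 5 to 4, 6 were higher, beside 17.6% of all genes, and 0 lower, beside 10.3%. Citrate synthase, Cs, was at 71.5 CPM in Arg and 55.1 CPM in Control. Import and protease genes of the mitochondrion had a median of 0.18 there (18 of 24 higher), RNA handling genes 0.14 (10 of 13) and regulators of transcription 0.18 (5 of 8). Carriers and subunits with other names, such as cytochrome c and the ADP/ATP carriers, had medians of 0.15 in pDCs (10 of 12 higher), 0.17 in cDC2s (8 of 10), -0.16 in monocytes (1 of 10) and -0.39 in neutrophils (0 of 9). In cDC1s the same list had a median of -0.09 (3 of 10 higher), opposite in sign to the nuclear members, as it was in Tregs (-0.02) and cluster C0 (-0.08).

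In CD8 T cells 3 of 8 measured genes that copy and transcribe mitochondrial DNA were higher in Arg, with a median of -0.03. RNA handling genes had a median of -0.03 (6 of 14). Tfam, the packaging and transcription factor of mitochondrial DNA, was at 33.2 CPM in Arg and 41.7 CPM in Control. The part of these genes in the levels of the mitochondrial members was not tested. Genes for proteins of the mitochondrial ribosome, which translates the 13 members, were slightly lower in CD8 T cells, with 14 of 74 higher and a median of -0.09. In macrophages 6 of 77 were higher, with a median of -0.19, and in monocytes 6 of 69, with -0.23. Cytosolic ribosomal protein genes had medians of -0.08 in CD8 T cells, -0.29 in macrophages and -0.62 in neutrophils. Summed, they were at 132467 CPM in Arg and 162124 CPM in Control macrophages, and the part of that in the CPM of the members was not tested. Other complex IV and complex I assembly factors had a median of -0.00 in CD8 T cells (14 of 28 higher) and antioxidant genes of the mitochondrion -0.03 (4 of 10). Myc, a known driver of mitochondrial gene expression, was at 36.7 CPM in Arg and 73.4 CPM in Control CD8 T cells and at 29.1 and 51.6 CPM in macrophages.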

How the data were processed

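UMI counts per gene and cell barcode were deposited as matrices by the authors, 1 per library. Cell Ranger is given as version 7.0.1 in the file headers and as 2.2.2, with GRCm38, in the submitters' processing notes; the difference was not resolved. No source used here says whether intronic reads entered the counts. Barcodes were kept from 200 genes and 500 UMIs upward if mitochondrial genes gave 10% of UMIs or less, and doublets called by Scrublet in scanpy 1.11.5 were removed (6.37% of Arg and 5.09% of Control cells). Clusters came from 2000 variable genes with the members and mitochondrial genes left out, 30 components, 20 neighbours and Leiden (leidenalg 0.10.2) at resolution 1. They were named from fixed markers, with thresholds set after the clusters were seen. Counts were summed per class and library and divided by the class total (CPM). Log2 values of single genes and the fold line add 5 CPM to both libraries; ratios printed with an interval, and those of sums, do not. Intervals are exact Poisson for levels and exact binomial for ratios of sums, at 95%, and cover counting error only. TMM factors came from edgeR 4.0.16. No test was made, since each diet has 1 library. The counting steps were tested on simulated data.

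The members and all lists were chosen with earlier results of these data known. Named genes are all mitochondrial members; the 3 members per complex with the widest range between classes; the 5 highest and 5 lowest in Arg against Control in CD8 T cells and macrophages and the outermost in other classes; and isoform families of complexes IV and V. Among those families Atpif1 is not a member and is not analysed here.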

Additional observations from a re-analysis of the deposited data

How the results depend on the processing

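No paired analysis was possible because each diet has 1 library. With 1 library per diet no value can be separated from library preparation. Alternatives changed 1 step at a time; leaving clusters L9 and C0 in or out was chosen after seeing the data. The dendritic cell medians of nuclear members never changed sign (pDCs 0.10 to 0.28, cDC2s 0.13 to 0.23, cDC1s 0.10 to 0.19). With doublets kept, the nuclear median was 0.028 in CD8 T cells, -0.11 in macrophages, -0.032 in CD4 T cells and -0.022 in Tregs, and the mitochondrial log2 ratio was 0.14 in CD8 T cells and -0.13 in macrophages. At cluster resolution 0.5 the values were 0.027 and -0.11 for nuclear members in CD8 T cells and macrophages and 0.24 and -0.15 for mitochondrial ones, with no CD4 T class. At resolution 2 the nuclear values were -0.024, -0.11 and, in monocytes, 0.037, and the macrophage mitochondrial value -0.13. With the members among the variable genes, macrophages gave -0.12 and -0.12 and CD4 T cells -0.024 (nuclear). TMM gave nuclear values of -0.060 in CD8 T cells and -0.14 in macrophages and mitochondrial values of 0.16, -0.056 and, in pDCs, -0.052. Means over cells gave nuclear values of -0.046 and -0.088 in CD8 T cells and macrophages and mitochondrial values of 0.23 and 0.047, with 0.020 in cDC2s. Reweighting clusters to 1 mix gave nuclear values of 0.0086 and -0.015 and a macrophage mitochondrial value of 0.069, with none for pDCs. Limits of 5%, 20% and none gave mitochondrial values of 0.011, 0.11 and 0.19 in macrophages, 0.24 at 5% in CD8 T cells, and 0.12 at 20% and 0.43 with none in neutrophils; the macrophage nuclear median was -0.025 at 20% and -0.026 with none. With L9 the CD8 T mitochondrial value was 0.20, and with C0 the macrophage values were -0.10 (nuclear) and -0.14 (mitochondrial). The ratio of the highest to the lowest class in mitochondrial per nuclear UMIs was 2.01 at 5%, 2.71 with no limit and 2.13 as means over cells. At a 1.5-fold line the CD8 T lower count and both macrophage counts were 0. The cause of these shifts was not tested.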
